A study of Mus musculus with 18 samples.

Results

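Trunks of mouse embryos homozygous for Hoxb13hd, a mutant allele of the HoxB cluster gene Hoxb13, were compared at the embryonic stage E10.5 with trunks of wild type embryos by RNA sequencing. The comparison rests on 6 of the 18 libraries of the series, 3 from Hoxb13hd embryos and 3 from wild type embryos, chosen by their labels and not by any measured value. All 6 libraries came from embryos whose head had been removed and from mutants or wild type littermates, and all were ribosomal RNA depleted and made with a stranded kit. The labels do not give the strain, the meaning of the letters hd, or whether a library holds 1 embryo or a pool. The p-values thus measure only how far these libraries spread, which could be technical in part. A further 6 E10.5 libraries carried Del(i9-13), a homozygous mutation named for the interval between Hoxb9 and Hoxb13, 3 of them together with Hoxb13hd. These 6 entered the same model for its estimate of spread and also gave the allele's effect on the deletion. For the change with stage, 3 E9.5 trunk libraries of Del(i9-13) embryos, made with poly(A) selection, were used as well.

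Hox genes encode homeodomain transcription factors that give the body axis its regional identity, and the members at the 5′ end of each cluster are switched on last and most posteriorly. The embryo lengthens at its tail bud, where axial progenitors are kept by Wnt and Fgf signals and by Cdx and T (Brachyury) transcription factors, while presomitic mesoderm in front of it is cut into somites under the segmentation clock. Genes of Hox group 13, Hoxb13 among them, are known for slowing and ending this elongation, and mice without Hoxb13 function are known for a thicker tail and caudal spinal cord. Lin28a and Lin28b, RNA-binding proteins that block let-7 microRNA maturation, are known to promote trunk and tail growth in the same tissue.

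Libraries held 21.9 M, 23.7 M and 23.6 M counts in wild type and 21.6 M, 21.7 M and 19.3 M in Hoxb13hd. Replicates varied by more than counting error: the chi-square of a replicate pair, divided by its degrees of freedom, ran from 9.97 to 33.4. The 3 Hoxb13hd libraries stood apart on the first principal component of the 12 E10.5 libraries, which held 23.7% of the variance, with scores of 24.7, 55.9 and 46.7 against -34.4 to 4.22 in the other 9. By Xist and Ddx3y, 1 of 3 libraries in each group was female, wild type replicate 2 and Hoxb13hd replicate 1. Otx2 and Six3, which mark the forebrain, had at most 1 read in any of the 6 libraries, and 8 of 20 head and brain genes were abundant enough to be tested.

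Hoxb13 itself (mm10 chromosome 11, 96194316 to 96197447, plus strand) was barely detected in either group. It had 25, 3 and 1 reads in the wild type libraries and 0, 1 and 2 reads in the Hoxb13hd libraries, or 1.13, 0.127 and 0.0421 against 0, 0.0473 and 0.106 CPM (counts per M counts of the library, with its size corrected by TMM factors). Wild type replicate 1 held most of these reads and the groups overlapped. The ratio of summed levels, Hoxb13hd over wild type, was 0.117 with an exact 95% interval of 0.0228 to 0.377, which covers counting error only. An exact two-sided permutation test of log2(CPM + 0.1) gave a difference of -1.24 with p = 0.3, where 0.1 is the smallest p that 3 against 3 libraries allow, and edgeR's quasi-likelihood test gave log2 fold change -2.98 ± 1.33 (SE), adjusted p = 0.24. The level of the transcript therefore did not separate the labelled genotypes in these trunks. On Del(i9-13), where Hoxb13 stood at 10.8, 5.89 and 12.2 CPM, adding the allele left it at 11.3, 11.98 and 9.90 CPM.

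Genes called higher in Hoxb13hd trunks included members of the tail bud, segmentation clock and surface ectoderm lists, and genes called lower included members of the early neuron list. Lists of Wnt pathway, junction, ribosome biogenesis, ion channel, contractile and chaperone genes were made with the called genes in view, so their counts are a description and no separate support. Of 17202 genes tested with edgeR's quasi-likelihood test, 517 (3.01%) had a Benjamini-Hochberg adjusted p under 0.05 and are called below, 244 (1.42%) higher in Hoxb13hd and 273 (1.59%) lower. Of these, 214 higher and 258 lower genes encode proteins. Changes were small for most, with a median absolute log2 fold change of 0.57 among the called genes, and 114 changed at least 2-fold, 46 upwards and 68 downwards. The median log2 fold change of all genes tested was 0.0031. Groups did not overlap for 516 of the called genes and for 4374 (25.4%) of all genes tested, and 3510 genes had an unadjusted p under 0.05. Where a called gene is said below to separate the groups, this is a description and no separate support.

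**Figure D1:**
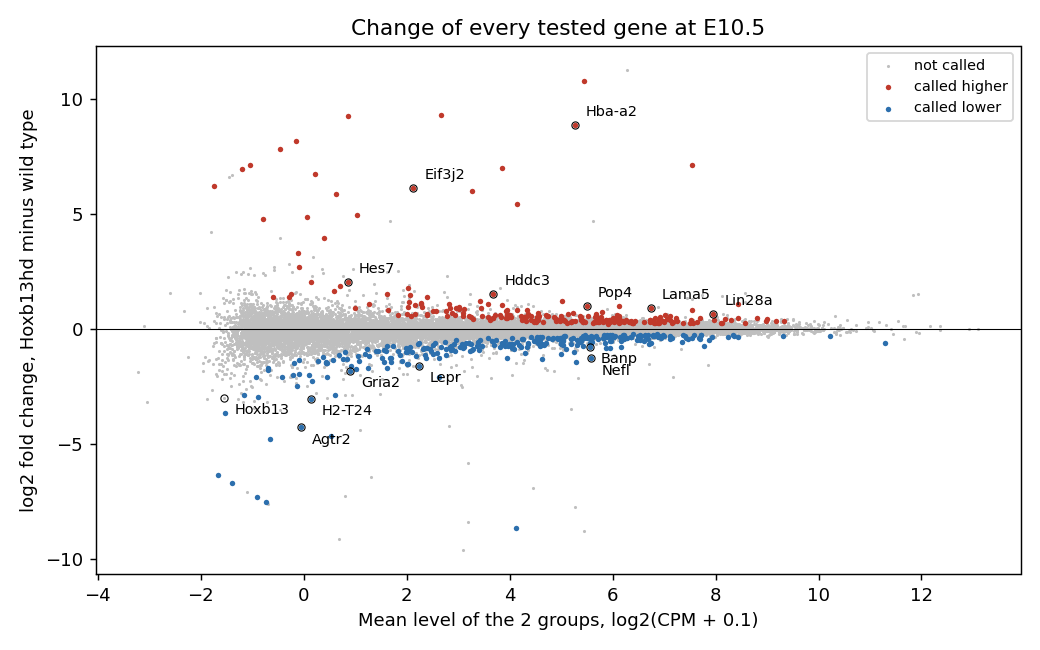
Log2 fold change of Hoxb13hd over wild type for each of 17202 tested genes (vertical axis) against the mean level of the 2 groups as log2(CPM + 0.1) (horizontal axis); red points are the 244 genes called higher, blue points the 273 called lower and grey points the rest, with named genes ringed. Most called genes lie within 2-fold of no change, and of the 31 called genes with an absolute log2 fold change over 3, 20 are pseudogenes.

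The number of calls rested on single libraries. Leaving out wild type replicate 1 gave 57 calls, replicate 2 gave 551 and replicate 3 gave 110. Leaving out Hoxb13hd replicate 1 gave 676, replicate 2 gave 51 and replicate 3 gave 71. All 517 genes kept their sign in each of these 6 fits. Groups did not overlap for 516 of them, so leaving out 1 library could hardly turn a sign. In all 6 fits 37 stayed called, 20 of them protein-coding and 15 pseudogenes, and 73 were called in none. Of the 517 genes, 374 stayed called without wild type replicate 2 and 389 without Hoxb13hd replicate 1. These are the female libraries, and their summed level of the tail bud genes, given with that list, lay nearest the other group. With the Xist level as a covariate 283 genes were called, 280 of them among the 517.

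**Figure D2:**
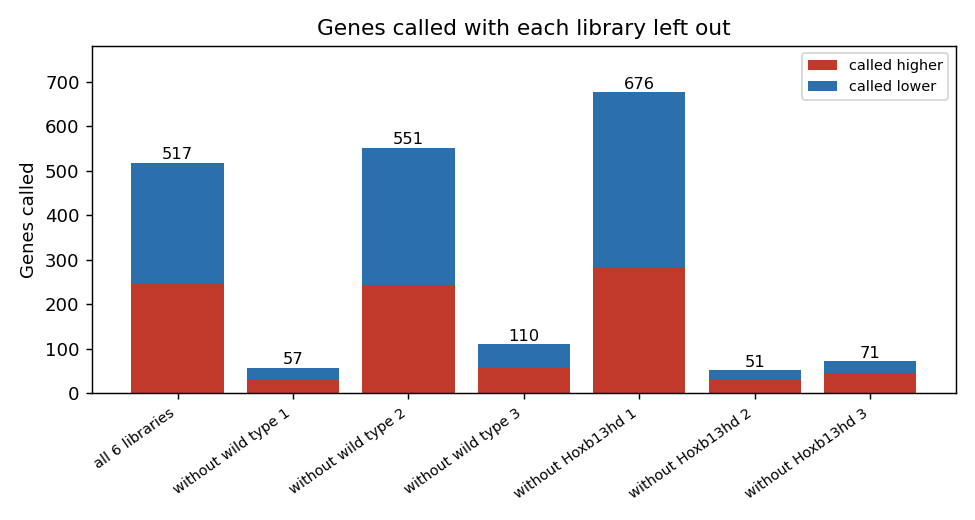
Number of genes called (bar height from 0, red for higher and blue for lower in Hoxb13hd) with all 6 libraries and with each library left out in turn. The counts were 517 with all libraries and from 51 to 676 with 1 left out.

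Among the genes that stayed called in every one of these fits, Banp, a nuclear DNA-binding protein of CpG island promoters, had 56.3, 64.2 and 56.4 CPM in wild type and 34.7, 34.5 and 35.7 in Hoxb13hd (log2 fold change -0.75 ± 0.07 (SE), adjusted p = 1.04e-04). The 3 Hoxb13hd values lay close together and well under all wild type values. St6gal2, a sialyltransferase, had 21.3, 19.6 and 21.6 CPM in wild type and 11.4, 12.2 and 11.9 in Hoxb13hd (log2 fold change -0.82 ± 0.08 (SE), adjusted p = 2.91e-04). Lepr, the leptin receptor, had 6.53, 6.10 and 8.21 CPM in wild type and 2.28, 2.13 and 2.48 in Hoxb13hd (log2 fold change -1.59 ± 0.19 (SE), adjusted p = 9.44e-04). Slitrk6, a neuronal transmembrane protein, also fell (log2 -0.70, adjusted p = 0.0023).

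Of the rises that held in every fit, Hddc3, a hydrolase of the HD domain family, had 7.12, 6.82 and 5.64 CPM in wild type and 17.2, 19.6 and 20.2 in Hoxb13hd (log2 fold change 1.54 ± 0.16 (SE), adjusted p = 2.91e-04). Pop4, a protein subunit shared by RNase P and RNase MRP, had 30.9, 30.6 and 28.2 CPM in wild type and 55.2, 62.4 and 62.6 in Hoxb13hd (log2 fold change 1.01 ± 0.11 (SE), adjusted p = 4.20e-04). Pop4 was the only called gene of 13 listed subunits of these RNases, whose median log2 fold change was 0.09. Slc9a3r1, a scaffold protein of apical membranes also known as NHERF1, had 39.8, 43.5 and 41.5 CPM in wild type and 69.5, 73.9 and 63.8 in Hoxb13hd (log2 fold change 0.73 ± 0.09 (SE), adjusted p = 0.0013). Tomm6, a subunit of the mitochondrial import pore, had 41.7, 45.5 and 46.3 CPM in wild type and 64.8, 63.7 and 67.2 in Hoxb13hd (log2 fold change 0.55 ± 0.07 (SE), adjusted p = 0.0024). Endov (log2 0.50), Rccd1 (0.62), Noc2l (0.41) and Wfikkn1 (0.82) were further protein-coding genes called throughout.

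Pseudogenes and unnamed symbols were left out of the ranking by size, though some changed more, such as the pseudogene Rps15a-ps8 (log2 9.29). Among the other called genes with a mean of at least 1 CPM in either group and no overlap, the largest rises were of genes with close copies. The adult alpha globin copy Hba-a2 had 0.136, 0.254 and 0.0842 CPM in wild type and 69.7, 73.4 and 87.8 in Hoxb13hd (log2 fold change 8.87 ± 1.74 (SE), adjusted p = 0.040). Eif3j2, a copy of a translation initiation factor subunit, had 0.0453, 0.127 and 0.168 CPM in wild type and 7.79, 8.10 and 9.46 in Hoxb13hd (log2 fold change 6.13 ± 0.39 (SE), adjusted p = 3.08e-06). Hba-a2 lost its call with any library left out (adjusted p up to 0.17), and Eif3j2 kept it with each. Both went from near 0 in all wild type libraries to a steady level in all mutant libraries, and counts of such copies are uncertain because the counting of shared reads is not described. Hba-a2 was the only called gene of 15 embryonic and adult globin and red cell genes, and the list's median log2 fold change was 0.13. Other large rises were those of Hes7 (log2 2.04), Ankrd2 (2.05), Gchfr (1.89), a regulator of tetrahydrobiopterin synthesis, Lrrc51 (1.80), Pi15 (1.67), Hes3 (1.54), a repressor of neural differentiation, P4ha3 (1.51), a collagen prolyl hydroxylase subunit, and the antisense transcript Evx1os (1.42). Lrrc51 had 1.99, 1.53 and 1.81 CPM in wild type and 7.13, 6.86 and 4.597 in Hoxb13hd (adjusted p = 0.0056) and stayed called with each library left out.

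The largest falls in the same ranking were of low-abundance genes, several of them expressed by neurons. The pseudogene Gm6166, left out of it, fell more (log2 -8.64). Agtr2, an angiotensin II receptor, had 2.31, 0.593 and 2.06 CPM in wild type and 0.140, 0.0947 and 0 in Hoxb13hd (log2 fold change -4.26 ± 0.70 (SE), adjusted p = 0.012). H2-T24, a class I histocompatibility gene copy, had 1.179, 1.61 and 2.53 CPM in wild type and 0.0932, 0.142 and 0.423 in Hoxb13hd (log2 fold change -3.03 ± 0.48 (SE), adjusted p = 0.011). Both were named under a rule that required no overlap between the groups. Serpina10 (log2 -2.45), Nwd2 (-2.07), Tmem163 (-1.98), Akr1c14 (-1.98), Qrich2 (-1.95), Calb1 (-1.71), a calcium-binding protein of neurons, Thsd7b (-1.70), Svop (-1.68), a synaptic vesicle protein, Hmx1 (-1.61), a homeobox gene of sensory ganglia, Plppr1 (-1.51) and Palmd (-1.48) fell too. Each of these genes lost its call with at least 1 library left out.

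Few Hox genes were called. Of 12 HoxB transcripts tested, Hoxb13 included, Hoxb1, the gene at the opposite end of the cluster from Hoxb13, was the only one called. It had 4.44, 5.51 and 5.81 CPM in wild type and 10.96, 8.14 and 10.9 in Hoxb13hd (log2 fold change 0.93 ± 0.15 (SE), adjusted p = 0.0098; adjusted p = 0.051 without wild type replicate 1). Its groups did not overlap. Gm53, a noncoding RNA between Hoxb13 and Hoxb9, had 23.6, 18.7 and 15.6 CPM in wild type and 30.4, 50.9 and 55.0 in Hoxb13hd (log2 fold change 1.23 ± 0.24 (SE), adjusted p = 0.045). It was not called without wild type replicate 1, 2 or 3 or Hoxb13hd replicate 2 or 3 (adjusted p up to 0.17). Hoxb9 had 90.8, 99.5 and 82.7 CPM in wild type and 95.1, 125 and 124 in Hoxb13hd (adjusted p = 0.099). Hoxb8 had 7.80, 9.83 and 12.04 CPM in wild type and 15.2, 12.2 and 12.3 in Hoxb13hd (adjusted p = 0.14). Neither was called. Values of Hoxb2 (log2 0.07), Hoxb4 (0.00089) and Hoxb6 (-0.01) lay near 0, and their sign turned under other settings given in the closing section. The median of the 12 was 0.24.

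In the other clusters, Hoxd9 rose, with 15.6, 15.4 and 13.3 CPM in wild type and 20, 24.003 and 22.7 in Hoxb13hd (log2 fold change 0.59 ± 0.10 (SE), adjusted p = 0.012), and was not called without Hoxb13hd replicate 2 or 3 (adjusted p up to 0.064). It was the only called gene of 17 tested in groups 9 to 13 outside HoxB, which had a median log2 fold change of 0.41, and none of 10 in groups 4 to 8 was called. The paralogs of Hoxb13 were not called. Hoxa13 had 5.39, 3.69 and 4.72 CPM in wild type and 4.99, 6.25 and 5.50 in Hoxb13hd (adjusted p = 0.83). Hoxc13 had 1.13, 0.805 and 0.379 CPM in wild type and 1.03, 1.09 and 1.16 in Hoxb13hd (adjusted p = 0.64). Hoxd13 had 12.2, 12.3 and 10.7 CPM in wild type and 12.3, 14.3 and 15.3 in Hoxb13hd (adjusted p = 0.64). Libraries overlapped for Hoxa13 and Hoxc13 and not for Hoxd13.

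Within 500 kb of Hoxb13, 3 of 27 tested genes (11.1%) were called, all higher: Hoxb1, Gm53 and Snf8, a subunit of the ESCRT-II membrane sorting complex at -159.4 kb, with 27.4, 29.8 and 28.9 CPM in wild type and 35.8, 38.3 and 39.8 in Hoxb13hd (log2 fold change 0.40 ± 0.08 (SE), adjusted p = 0.019). Leaving out wild type replicate 1 left 0, leaving out wild type replicate 3 or Hoxb13hd replicate 2 or 3 left 1, and leaving out Hoxb13hd replicate 1 gave 5. Over the genome, chromosome 11 held 59 called genes of 1307 tested (4.51%), beside 57 of 1309 (4.35%) on chromosome 7, 35 of 791 (4.42%) on chromosome 17 and 8 of 511 (1.57%) on chromosome 16.

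Genes of the tail bud and its axial progenitors were higher as a group. Of 25 listed genes, all tested, 8 were called higher and none lower, 23 had a positive value, and the median log2 fold change was 0.79. Cdx1, a caudal-type homeobox factor of axial elongation, had 2.22, 4.28 and 2.32 CPM in wild type and 5.36, 8.05 and 6.29 in Hoxb13hd (log2 fold change 1.16 ± 0.26 (SE), adjusted p = 0.035). Fgf8, the signal that keeps presomitic mesoderm immature, had 5.67, 4.87 and 4.13 CPM in wild type and 6.43, 9.09 and 9.78 in Hoxb13hd (log2 fold change 0.79 ± 0.18 (SE), adjusted p = 0.037). The zinc finger factor Sall4 had 90.7, 117 and 97.7 CPM in wild type and 157, 162 and 149 in Hoxb13hd (log2 fold change 0.62 ± 0.12 (SE), adjusted p = 0.020). In all 3 genes the lowest mutant library lay above the highest wild type library. Wnt3a, the main Wnt ligand of the tail bud, had 5.85, 6.86 and 3.62 CPM in wild type and 7.18, 11.1 and 13.4 in Hoxb13hd (log2 fold change 0.95 ± 0.24 (SE), adjusted p = 0.049). Axin2, a feedback inhibitor switched on by Wnt signalling, had 75.4, 77.7 and 75.5 CPM in wild type and 88.8, 97.7 and 105 in Hoxb13hd (log2 0.35, adjusted p = 0.017). Notum, another such inhibitor, had 6.35, 7.12 and 5.85 CPM in wild type and 9.46, 11.2 and 10.7 in Hoxb13hd (log2 0.70, adjusted p = 0.014). Sp8, a zinc finger factor of the tail bud, limb and neural tube, had 18.4, 19.8 and 18.3 CPM in wild type and 21.9, 29.2 and 30.4 in Hoxb13hd (log2 0.53, adjusted p = 0.031).

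Sp5, a direct Wnt target of the tail bud, had 2.36, 3.98 and 2.06 CPM in wild type and 5.55, 5.11 and 7.03 in Hoxb13hd (log2 fold change 1.07 ± 0.25 (SE), adjusted p = 0.042). Its promoter and that of the clock gene Hes7, the called tail gene with the largest change, are shown because both genes rose and both windows hold a motif of a regulator of the pathway. The first is CTTTGAT, the sequence bound by Tcf and Lef factors of the Wnt pathway, and the second is CACGAG, an N box bound by Hes repressors. Each was sought on both strands in the 250 bases before the start, where CTTTGAT is present in 3.21% and CACGAG in 5.36% of 32817 RefSeq promoters (GRCm38.p6). Capitals mark the match, which begins 104 bases before the start of Sp5 (chr2:70474673-70474922, plus strand) and 116 bases before the start of Hes7 (chr11:69120203-69120452, plus strand, where it reads CTCGTG).
Sp5: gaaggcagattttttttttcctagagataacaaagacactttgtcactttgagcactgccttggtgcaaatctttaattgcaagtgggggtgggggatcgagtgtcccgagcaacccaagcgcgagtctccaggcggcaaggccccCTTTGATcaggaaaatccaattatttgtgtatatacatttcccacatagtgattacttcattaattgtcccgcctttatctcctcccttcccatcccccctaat
Hes7: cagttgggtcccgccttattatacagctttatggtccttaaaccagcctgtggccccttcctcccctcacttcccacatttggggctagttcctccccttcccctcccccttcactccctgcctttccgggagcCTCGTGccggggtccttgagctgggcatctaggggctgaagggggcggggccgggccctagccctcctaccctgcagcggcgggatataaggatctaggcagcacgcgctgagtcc
Among 11935 tested genes matched to a promoter, 271 held CTTTGAT, of which 5 were called higher and 5 lower, and 842 held CACGAG, of which 13 were called higher and 13 lower. Of all genes tested, 1.42% were called higher and 1.59% lower. The median log2 fold change was -0.005 with CTTTGAT and 0.02 with CACGAG, against 0.007 for all matched genes.

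The defining markers of the tail bud had higher values in Hoxb13hd too, but with more spread, and were not called. T had 12.1, 12.4 and 2.74 CPM in wild type and 16.1, 24.6 and 24.4 in Hoxb13hd (adjusted p = 0.14). Cdx2 had 4.62, 8.05 and 1.56 CPM in wild type and 9.28, 17.3 and 15.2 in Hoxb13hd (adjusted p = 0.084). Cdx4 had 1.81, 3.13 and 0.126 CPM in wild type and 4.99, 7.76 and 6.39 in Hoxb13hd (adjusted p = 0.099). Tbx6, a factor of presomitic mesoderm, had 3.31, 2.84 and 0.590 CPM in wild type and 4.52, 5.87 and 7.08 in Hoxb13hd (adjusted p = 0.15). Wild type replicate 3 was the lowest library for each of the 4, and no mutant library overlapped the wild type libraries. Summed over the list, the level was 646, 718 and 623 CPM in wild type and 818, 913 and 916 CPM in Hoxb13hd. None of the 25 was called without wild type replicate 1 or 3 or Hoxb13hd replicate 2 or 3, while 11 were called without wild type replicate 2 and 10 without Hoxb13hd replicate 1. The median stayed between 0.68 and 0.95 in these fits. In bulk trunks, a larger share of tail bud cells and more RNA per cell cannot be told apart, and this holds for every group of genes described here.

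**Figure D3:**
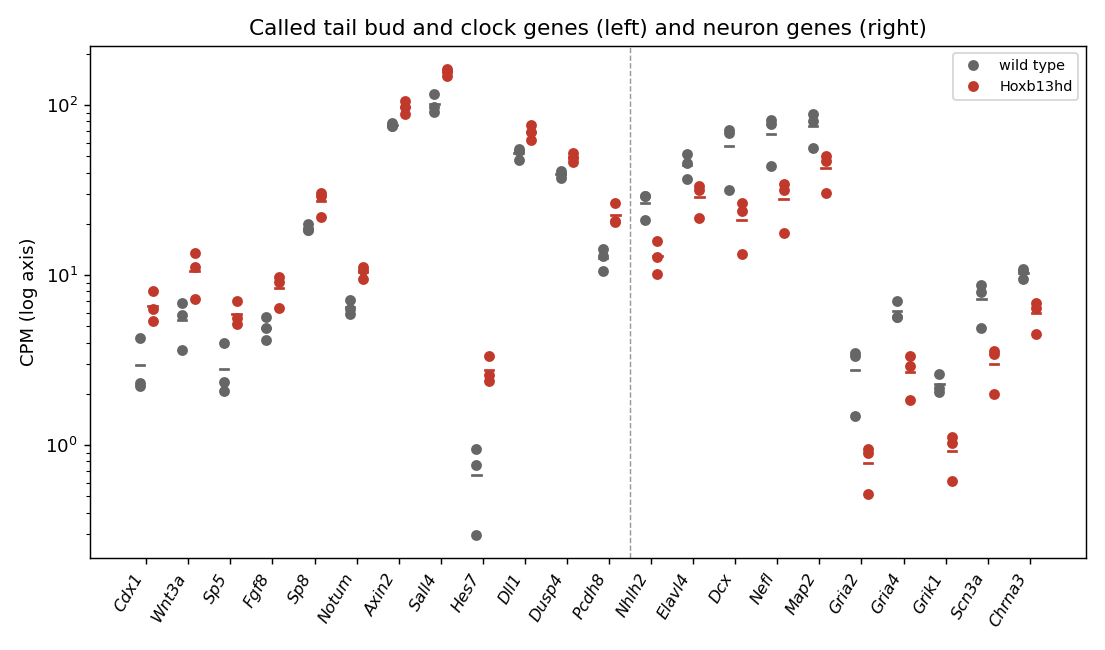
Level in CPM (vertical log axis) of 12 called tail bud and clock genes, left of the dashed line, and 10 called neuron genes, right of it; grey points are the 3 wild type libraries, red points the 3 Hoxb13hd libraries and bars their means. In each of the 22 genes every red point lies above all grey points on the left and below them on the right. The genes were plotted because they were called, and 516 of all 517 called genes show no overlap. Over whole lists, 19 of 25 tail bud and 9 of 20 clock genes did not overlap. The same held for 9 of 25 early neuron and 31 of 90 ion channel genes, against 25.4% of all genes tested.

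Of 20 genes of the segmentation clock and presomitic mesoderm, 4 were called higher and none lower, with a median log2 fold change of 0.26. Hes7, the oscillating repressor of the clock, had 0.952, 0.763 and 0.295 CPM in wild type and 2.38, 3.31 and 2.59 in Hoxb13hd (log2 fold change 2.04 ± 0.46 (SE), adjusted p = 0.037). Dll1, the Notch ligand of presomitic mesoderm, had 53.8, 54.9 and 47.1 CPM in wild type and 62.1, 68.9 and 76.4 in Hoxb13hd (log2 fold change 0.41 ± 0.09 (SE), adjusted p = 0.027). The Fgf response phosphatase Dusp4 had 37.3, 40.9 and 39.2 CPM in wild type and 46.4, 52.5 and 48.8 in Hoxb13hd (log2 0.33, adjusted p = 0.032). Pcdh8, a protocadherin, had 14.2, 12.9 and 10.6 CPM in wild type and 20.4, 20.8 and 26.6 in Hoxb13hd (log2 0.85, adjusted p = 0.046). All 4 were higher in each of the 3 mutant libraries. None of the list was called without wild type replicate 1 or 3 or Hoxb13hd replicate 2 or 3, and 2 were called without wild type replicate 2.

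More Wnt pathway genes were called higher than lower. A list of 74 ligands, receptors and targets was made with the data known. Of 73 tested, 14 were called higher and 2 lower, with a median log2 fold change of 0.17. Without the 7 genes it shares with the tail bud list, 10 of 66 were called higher and 2 lower, with a median of 0.13. Among ligands, Wnt7a of dorsal ectoderm had 11.6, 12.1 and 12.3 CPM in wild type and 14.7, 19.5 and 21.7 in Hoxb13hd (log2 0.63, adjusted p = 0.028). Wnt9b of the nephric duct and ectoderm had 3.17, 3.09 and 2.82 CPM in wild type and 4.57, 4.78 and 5.18 in Hoxb13hd (log2 0.68, adjusted p = 0.038). Both exceeded every wild type library in all mutant libraries. Among receptors and planar polarity proteins, Fzd10 (log2 0.41), Ror2 (0.39), Ptk7 (0.42), Celsr1 (0.52) and Daam2 (0.65) rose. The targets Lef1, a nuclear effector of the pathway, and Apcdd1, an inhibitor, rose by 0.68 and 0.57. The receptor Fzd3 of growing axons had 398, 367 and 405 CPM in wild type and 321, 280.5 and 315 in Hoxb13hd (log2 -0.35, adjusted p = 0.020). The secreted antagonist Frzb had 54.1, 48.8 and 45.1 CPM in wild type and 33.6, 36.0 and 34.2 in Hoxb13hd (log2 -0.51, adjusted p = 0.039). These were the members that fell. No member was called without wild type replicate 1 or 3 or Hoxb13hd replicate 2 or 3.

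Lin28a, the let-7 blocking protein of young tissues, had 162, 244 and 168 CPM in wild type and 278, 334 and 304 in Hoxb13hd (log2 fold change 0.68 ± 0.13 (SE), adjusted p = 0.020), and was the only called gene of 11 in the list of Lin28, let-7 and Gdf11 timing genes. Its groups did not overlap, and it was not called without wild type replicate 1 or 3 or Hoxb13hd replicate 2 or 3 (adjusted p up to 0.097). Lin28b had 214, 241 and 200.4 CPM in wild type and 225, 261 and 238 in Hoxb13hd (adjusted p = 0.31), with overlapping groups.

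Called genes for making ribosomes rose by small steps. Of 48 ribosome biogenesis genes, listed with the data known, 10 were called higher and none lower, 45 had a positive value and the median log2 fold change was 0.18. Noc2l, which acts in export of the large subunit precursor, had 163, 158 and 150.2 CPM in wild type and 196, 219.8 and 210.0 in Hoxb13hd (log2 fold change 0.41 ± 0.06 (SE), adjusted p = 0.0083) and stayed called with each library left out. Nle1 (log2 0.56, adjusted p = 0.024), Nmd3 (log2 0.42), Ppan (0.34), Bysl (0.30), Znhit6 (0.40), Wdr46 (0.33) and Rrp1b (0.28) rose with it. Myc, a transcription factor known to drive these genes, had 33.4, 45.8 and 43.2 CPM in wild type and 60.9, 57.8 and 63.6 in Hoxb13hd (log2 fold change 0.57 ± 0.14 (SE), adjusted p = 0.042). Srm, an enzyme of polyamine synthesis, had 98.0, 123 and 111 CPM in wild type and 127, 151 and 142 in Hoxb13hd (log2 0.34, adjusted p = 0.042). A single member was called without wild type replicate 1 or 3 or Hoxb13hd replicate 2 or 3. Of 87 ribosomal protein genes, 4 were called higher, Rps26 (log2 0.45), Rpl28 (0.40), Rps29 (0.34) and Rps15 (0.37), and the median was 0.13. Of all genes tested, 1.42% were called higher. Groups did not overlap for 12 of the 87, against 25.4% of all genes tested. The summed level of the ribosomal protein list overlapped, with 52049, 54297 and 46817 CPM in wild type and 48764, 60115 and 59638 CPM in Hoxb13hd.

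Several epithelial genes rose in Hoxb13hd. Of 12 tested surface ectoderm genes, 3 were called higher, all 12 had a positive value and the median log2 fold change was 0.53. Trp63, the transcription factor of stratifying epithelium, had 19.2, 17.4 and 16.8 CPM in wild type and 21.4, 32.3 and 33.3 in Hoxb13hd (log2 fold change 0.70 ± 0.14 (SE), adjusted p = 0.024). Grhl2, a factor of epithelial junctions, had 12.7, 11.7 and 10.1 CPM in wild type and 13.5, 19.3 and 17.1 in Hoxb13hd (log2 0.53, adjusted p = 0.043). The keratin Krt15 had 3.63, 5.38 and 4.25 CPM in wild type and 6.71, 9.42 and 12.3 in Hoxb13hd (log2 1.09, adjusted p = 0.040). Hoxb13hd replicate 1 was the lowest mutant library for each and still exceeded all wild type libraries. A list of 40 epithelial junction and basement membrane genes was made with the data known. Of 39 tested, 13 were called higher and none lower, with a median of 0.42. These 13 include Trp63, Grhl2, Krt15 and Krt19, which the surface ectoderm and hindgut lists count too. The list also holds transcription factors, Trp63 among them. Lama5, a laminin chain of basement membranes, had 70.7, 75.6 and 74.4 CPM in wild type and 121, 133 and 169 in Hoxb13hd (log2 fold change 0.94 ± 0.15 (SE), adjusted p = 0.012). Epha1, an ephrin receptor, had 7.98, 8.81 and 6.06 CPM in wild type and 12.6, 16.6 and 19.1 in Hoxb13hd (log2 1.08, adjusted p = 0.013). Llgl2, Esrp1, Lsr and Dlx3 rose by 0.58, 0.49, 0.37 and 0.97 on the log2 scale. Krt19, in the hindgut and endoderm list, had 20.2, 20.5 and 20.002 CPM in wild type and 28.7, 36.1 and 29.6 in Hoxb13hd (log2 fold change 0.64 ± 0.11 (SE), adjusted p = 0.013) and was the only one of 17 called there. That list had 9 positive and 8 negative values and a median of 0.18, which turned to -0.16 with no filter on low counts. Of the junction list, leaving out wild type replicate 1 left 0 calls, wild type replicate 3 or Hoxb13hd replicate 2 left 1, and Hoxb13hd replicate 3 left 2. No surface ectoderm gene was called when any of these 4 libraries was left out.

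Limb and other patterning genes gave single calls. Of 18 limb bud genes, Fgf8 and Msx1, a homeobox factor of limb mesenchyme and dorsal midline, were called. Msx1 had 51.6, 56.9 and 51.7 CPM in wild type and 65.1, 87.0 and 93.4 in Hoxb13hd (log2 fold change 0.61 ± 0.12 (SE), adjusted p = 0.020). Ret, the receptor of the nephric duct and enteric neural crest, had 10.97, 13.9 and 12.8 CPM in wild type and 23.1, 18.8 and 16.4 in Hoxb13hd (log2 0.63, adjusted p = 0.032) and was the only called gene both of 16 neural crest and of 17 nephric and urogenital genes. The hindlimb factor Tbx4 had 18.6, 15.8 and 17.1 CPM in wild type and 25.4, 27.6 and 23.7 in Hoxb13hd and was not called (adjusted p = 0.54). The forelimb factor Tbx5 had 15.003, 14.7 and 22.3 CPM in wild type and 18.4, 12.5 and 12.7 in Hoxb13hd (adjusted p = 0.51). Of 8 tested head and brain genes Dlx2, which is also a limb and crest gene, was called, with 1.04, 1.44 and 1.43 CPM in wild type and 2.33, 2.75 and 2.38 in Hoxb13hd (log2 0.92, adjusted p = 0.037). Of these 8, 7 had a positive value, 5 an unadjusted p under 0.05, and the median was 0.64 (0.18 and 0.11 with limma on log2(FPKM + 0.1) and log2(FPKM + 1)). Their summed level was 29.8, 25.9 and 33.4 CPM in wild type and 33.5, 31.8 and 39.6 CPM in Hoxb13hd, with overlapping groups. Their median log2 CPM, relative to each gene's mean over the 6 libraries, did not overlap. It was -0.23, -0.26 and -0.10 in wild type and 0.15, 0.26 and 0.52 in Hoxb13hd. The part of retained head tissue in the results was not tested. None of Fgf8, Msx1 and Dlx2 was called without wild type replicate 1 or 3 or Hoxb13hd replicate 2 or 3, and Ret was not without wild type replicate 1 or 3 or Hoxb13hd replicate 1 or 2.

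Neuron genes were lower in Hoxb13hd. Of 25 early neuron genes, all tested, 5 were called lower and none higher, 23 had a negative value and the median log2 fold change was -0.62. Nhlh2, a bHLH factor of newborn neurons, had 29.1, 21.01 and 29.2 CPM in wild type and 12.8, 10.2 and 15.7 in Hoxb13hd (log2 fold change -1.04 ± 0.17 (SE), adjusted p = 0.011). Nefl, a neurofilament subunit, had 77.4, 43.5 and 81.1 CPM in wild type and 31.7, 17.7 and 34.3 in Hoxb13hd (log2 fold change -1.27 ± 0.29 (SE), adjusted p = 0.048). Dcx, a microtubule protein of migrating neurons, had 68.2, 31.6 and 71.0 CPM in wild type and 26.4, 13.2 and 23.9 in Hoxb13hd (log2 fold change -1.43 ± 0.30 (SE), adjusted p = 0.039). For all 3 genes, wild type replicate 2 was the lowest of its group and Hoxb13hd replicate 2 the lowest of all. Elavl4, a neuronal RNA-binding protein, had 51.2, 36.5 and 45.4 CPM in wild type and 31.5, 21.7 and 33.1 in Hoxb13hd (log2 -0.62, adjusted p = 0.040). The dendrite protein Map2 had 88.8, 55.6 and 80.5 CPM in wild type and 46.9, 30.4 and 50.1 in Hoxb13hd (log2 -0.82, adjusted p = 0.039). Summed over the list the level was 778, 521 and 812 CPM in wild type and 476, 297 and 489 CPM in Hoxb13hd. None of the list was called without wild type replicate 1 or Hoxb13hd replicate 2, and 1 was called without wild type replicate 3 or Hoxb13hd replicate 3. The median stayed between -0.79 and -0.39.

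Some neurotransmitter receptor and ion channel subunits fell as well. A list of 122 such genes was made with the data known. Of 90 tested, 8 were called lower and none higher, and the median log2 fold change was -0.38. The AMPA receptor subunit Gria2 had 3.35, 1.48 and 3.45 CPM in wild type and 0.513, 0.947 and 0.898 in Hoxb13hd (log2 -1.81, adjusted p = 0.017). Gria4, another such subunit, had 7.03, 5.68 and 5.68 CPM in wild type and 3.36, 1.85 and 2.91 in Hoxb13hd (log2 -1.18, adjusted p = 0.012). The kainate receptor subunit Grik1 had 2.04, 2.16 and 2.61 CPM in wild type and 1.03, 0.615 and 1.11 in Hoxb13hd (log2 -1.31, adjusted p = 0.019). The sodium channel Scn3a had 7.98, 4.87 and 8.76 CPM in wild type and 3.59, 1.99 and 3.43 in Hoxb13hd (log2 -1.26, adjusted p = 0.020). Every mutant library lay below every wild type library for each. The glycine receptor subunit Glrb (log2 -0.66), the nicotinic receptor subunit Chrna3 (-0.79) and the calcium channel subunits Cacna2d1 (-0.42) and Cacng7 (-0.47) made up the rest. None was called without Hoxb13hd replicate 2 or 3, and 1 was without wild type replicate 1 or 3.

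Among 17 spinal cord progenitor genes, Sp8 was called higher and Ptf1a, a bHLH factor of dorsal interneuron progenitors, lower, with 0.680, 0.339 and 0.842 CPM in wild type and 0.0932, 0.142 and 0 in Hoxb13hd (log2 -2.85, adjusted p = 0.048). The list's median log2 fold change was 0.34, with 13 positive and 4 negative values. Its median log2 CPM, relative to each gene's mean over the 6 libraries, overlapped between groups. It was -0.39, 0.04 and -0.03 in wild type and 0.10, -0.11 and 0.38 in Hoxb13hd. Sp8 is also in the tail bud list. Of 11 notochord and floor plate genes none was called. In that list the lowest adjusted p was that of Ntn1, a floor plate guidance cue, with 94.3, 105 and 117 CPM in wild type and 139, 127 and 117 in Hoxb13hd (log2 0.28, adjusted p = 0.10).

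**Figure D4:**
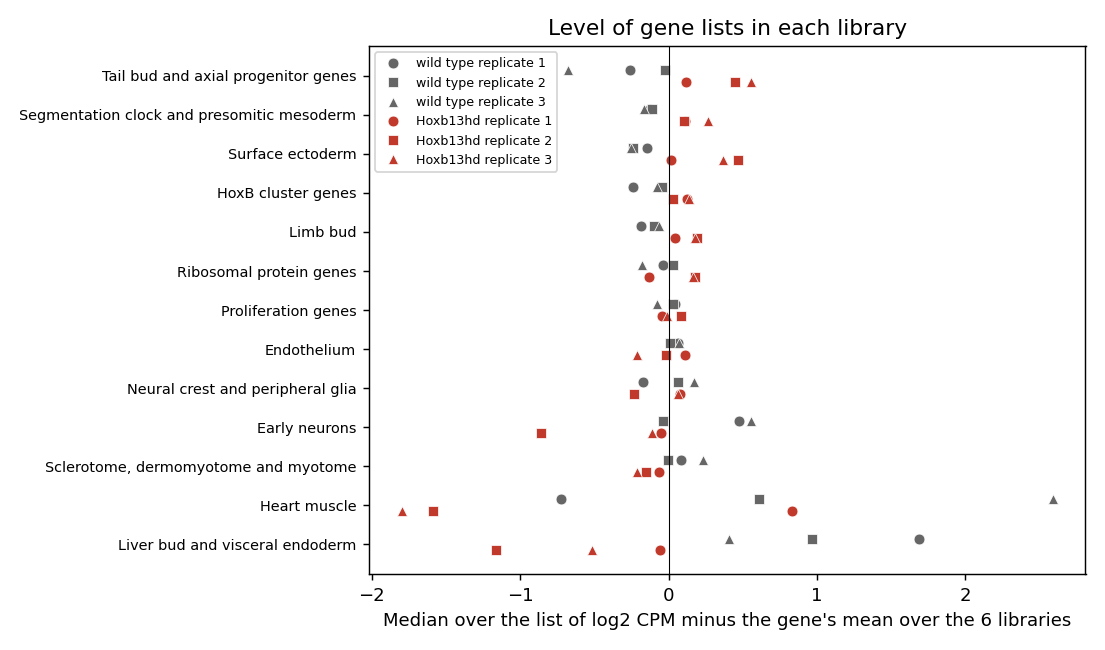
Level of 13 gene lists in each library, as the median over the list's tested genes of log2 CPM minus that gene's mean over the 6 libraries (horizontal axis); grey symbols are wild type and red symbols Hoxb13hd, with circle, square and triangle for replicates 1, 2 and 3. Tail bud and surface ectoderm genes are higher in all red libraries than in all grey ones, proliferation genes show no separation, and heart muscle genes spread from -1.80 to 2.59 across libraries.

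Some skeletal muscle genes fell. Of 20 sclerotome, dermomyotome and myotome genes, 2 were called, both lower. Nkx3-2, a sclerotome factor of vertebral cartilage, had 3.94, 3.81 and 3.37 CPM in wild type and 2.00, 2.56 and 2.17 in Hoxb13hd (log2 fold change -0.72 ± 0.17 (SE), adjusted p = 0.039). Acta1, skeletal muscle actin, had 24.4, 17.7 and 28.3 CPM in wild type and 16.3, 12.8 and 12.1 in Hoxb13hd (log2 fold change -0.77 ± 0.18 (SE), adjusted p = 0.040). The list's median was -0.11. A list of 26 contractile and sarcolemma genes was drawn up later, with the data known. It had 6 of 24 tested genes called lower, none higher, and a median of -0.76. The myosin light chain Myl1 had 4.31, 4.24 and 5.22 CPM in wild type and 2.75, 0.947 and 1.48 in Hoxb13hd (log2 -1.40, adjusted p = 0.028). Mylpf, another light chain, had 15.6, 10.46 and 14.9 CPM in wild type and 7.83, 5.63 and 8.61 in Hoxb13hd (log2 -0.89, adjusted p = 0.027). Sgcd had 6.71, 4.79 and 5.39 CPM in wild type and 3.45, 2.41 and 2.54 in Hoxb13hd (adjusted p = 0.016). Mstn (log2 -1.11) and Dmd (-0.32) fell as well. Of these 26, none was called without wild type replicate 1 or Hoxb13hd replicate 2 or 3, and 1 was called without wild type replicate 3. The list's summed level was 388, 406 and 1172 CPM in wild type and 486, 179 and 216 CPM in Hoxb13hd, with overlapping groups. Many of these genes are also made by heart muscle, described next.

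Heart genes varied widely between libraries of both groups, while the summed level of liver genes was lower in every Hoxb13hd library. Of 17 tested heart muscle genes all had a negative value, with a median log2 fold change of -1.65, and none was called. The atrial myosin Myh6 had 2.13, 63.5 and 227 CPM in wild type and 86.6, 0.379 and 0.476 in Hoxb13hd, and Tnnt2 had 7.12, 19.4 and 56.3 CPM in wild type and 22.6, 5.21 and 4.597 in Hoxb13hd, so that the heart genes were highest in wild type replicate 3 and Hoxb13hd replicate 1 and groups overlapped. Summed heart levels were 259.5, 550.1 and 1981 CPM in wild type and 678, 109.9 and 104 CPM in Hoxb13hd, and the median was -0.48 without wild type replicate 3. Of 21 liver bud and visceral endoderm genes 20 had a negative value, with a median of -1.79 and none called by edgeR's test, though 7 had an unadjusted p under 0.05 and DESeq2 called 4 lower. Their summed level was 771, 366 and 269 CPM in wild type and 181, 63.0 and 131 CPM in Hoxb13hd, without overlap. Groups did not overlap for 11 of the 21, against 25.4% of all genes tested, and the 21 genes share the same 6 libraries. Afp had 391, 172 and 140.5 CPM in wild type and 84.8, 14.4 and 65.2 in Hoxb13hd (adjusted p = 0.18). Alb had 15.4, 9.32 and 15.03 CPM in wild type and 6.11, 0.0947 and 5.07 in Hoxb13hd (adjusted p = 0.43). The part of retained heart or liver tissue in the muscle result and the others was not tested.

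Some chaperones of the endoplasmic reticulum fell by small and even steps. From a list of 26 chaperone and unfolded protein response genes, made with the data known, 5 were called lower and none higher. Of the 26, 20 had a negative and 6 a positive value, and the median was -0.09. Hspa5, the main chaperone of this compartment, had 1337, 1348 and 1278 CPM in wild type and 1009, 1109 and 1081 in Hoxb13hd (log2 fold change -0.31 ± 0.07 (SE), adjusted p = 0.033). Xbp1, the transcription factor of the response, had 117, 121 and 107 CPM in wild type and 72.8, 82.8 and 88.9 in Hoxb13hd (log2 fold change -0.50 ± 0.08 (SE), adjusted p = 0.010). Dnajc3, a co-chaperone, had 137, 141 and 128 CPM in wild type and 105, 112 and 107 in Hoxb13hd (log2 fold change -0.33 ± 0.06 (SE), adjusted p = 0.012). Pdia4 and Herpud1 fell by 0.29 and 0.38 on the log2 scale. For all 5 genes each mutant library lay under each wild type library. Leaving out wild type replicate 1 left 0 calls, wild type replicate 3 left 2, and Hoxb13hd replicate 2 or 3 left 1.

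Other lists held few or no calls. Proliferation genes had a median log2 fold change of 0.00054 with 1 of 28 called, Hjurp, the chaperone of the centromeric histone, at 327, 251 and 232 CPM in wild type and 171, 169.7 and 156 in Hoxb13hd (log2 fold change -0.71 ± 0.11 (SE), adjusted p = 0.0093). Among p53 targets 1 of 21 was called, Trp53inp1 (log2 -0.61, adjusted p = 0.020), and among glycolysis and hypoxia genes Pfkl (log2 0.48, adjusted p = 0.016) and Ndrg1 (log2 0.58, adjusted p = 0.040) were 2 of 27. In the histone list 1 of 57 was called, H4c14 (log2 0.47), whose reads can be shared with other copies. No gene was called among 18 of endothelium, 15 of macrophages, 25 of sterol synthesis, 19 small nucleolar RNA hosts, 14 mitochondrially encoded genes and 4 of placenta and yolk sac. Of 25 immediate early and stress genes Hspa5, described above, was called lower, and of 19 MHC genes H2-T24 and H2-Bl were. Macrophage genes summed to 32.3, 17.9 and 22.6 CPM in wild type and 23.2, 9.56 and 18.9 CPM in Hoxb13hd, with Cx3cr1 at 3.44, 1.74 and 2.06 CPM in wild type and 1.17, 0.379 and 1.22 in Hoxb13hd (adjusted p = 0.071).

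The called genes were set beside the change with stage, taken from E10.5 minus E9.5 in Del(i9-13) libraries. These libraries give no part of the Hoxb13hd fold change, and in them stage and library type cannot be told apart. Of 244 genes called higher in Hoxb13hd, 216 (88.5%) were lower at E10.5 than at E9.5, and of 273 called lower, 244 (89.4%) were higher at E10.5. Over all genes tested, 66.6% of those with a positive Hoxb13hd value were lower at E10.5 and 71.4% of those with a negative value were higher. The median stage difference was -0.69 on the log2 scale for genes called higher and 0.89 for genes called lower, against 0.03 for all. The labels give no somite counts, and the part of embryo stage in the Hoxb13hd differences was not tested.

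Base composition also moved with the comparison. Genes called higher had a median GC content of 55.5% and a median length of 2640 bases in their longest GENCODE transcript, genes called lower 44.3% and 4688 bases, and all tested genes 49.3% and 3151 bases. Among the 3437 genes lowest in GC, 7 were called higher and 112 lower. Among the 3437 highest in GC, 123 were called higher and 18 lower. Across 11271 genes with at least 5 CPM, Spearman's rho between log2 fold change and GC content was 0.42. These genes share the same 6 libraries. Within libraries, log2 level relative to the mean of all 12 libraries had a rho with GC of -0.47, -0.28 and -0.17 in wild type and 0.26, 0.16 and 0.23 in Hoxb13hd. With an offset for GC and length fitted in each library, an alternative chosen after seeing the data, 472 genes were called, 257 higher and 215 lower, of which 316 were among the 517. Under it 8 tail bud genes were called higher, 2 clock genes higher and 1 early neuron gene lower, and the medians of these lists were 0.71, 0.22 and -0.59.

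The same allele was measured on the deletion in 6 other libraries, which shared in the model's estimate of spread but not in the fold change, as Del(i9-13):Hoxb13hd against Del(i9-13), where 0.907% of tested genes were called. Of the 517 genes, 362 (70.0%) had the same sign there, beside 57.3% of all genes tested, 29 were called in the same direction and 13 in the opposite one. Of the 244 called higher 189 (77.5%) kept their sign, and of the 273 called lower 173 (63.4%). The median log2 fold change on the deletion was 0.16 for those called higher and -0.05 for those called lower. Across 11271 genes, Spearman's rho between the log2 fold change on the deletion and GC content was 0.30. The part of base composition in these shares was not tested. Of the 333 genes called from the 6 compared libraries alone, a set added after the data were seen, 251 (75.4%) had the same sign on the deletion. The share of the calls with the same sign fell with a library left out, to 52.6% and 63.6% for wild type replicates 1 and 3 and to 51.0% and 60.6% for Hoxb13hd replicates 2 and 3. Hddc3 rose in both settings, with 7.05, 8.24 and 8.74 CPM on Del(i9-13) and 30.4, 20.4 and 29.1 CPM with the allele added (log2 1.73, adjusted p = 1.01e-04). Axin2 (log2 0.42), Ptk7 (0.34), Daam2 (0.67), P4ha3 (1.62) and Noc2l (0.32) were called higher in both, and Hjurp (-1.04), Dnajc3 (-0.40) and H2-T24 (-2.84) lower in both. The tail bud list had a median of 0.27 on the deletion and the early neuron list 0.09.

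Of all genes tested, 90 (0.523%) differed between the allele's effect with and without the deletion, 60 of them among the 517. Leaving out wild type replicate 1 or 3 made it 47 or 45, and leaving out Hoxb13hd replicate 3 made it 53. Pop4 was higher in Hoxb13hd than in wild type but lower in Del(i9-13):Hoxb13hd than in Del(i9-13), going from 75.2, 98.6 and 92.9 CPM to 32.3, 32.4 and 26.8 CPM (log2 -1.54; adjusted p of the difference 1.3e-06). Eif3j2 went from 7.17, 6.65 and 5.99 CPM to 0, 0.0780 and 0.217 CPM, the reverse of its rise from wild type to Hoxb13hd. Both genes were thus high in Hoxb13hd and Del(i9-13) libraries and low in the other 6. H4f16, a histone H4 copy, followed the same order, with 221, 233 and 204 CPM in wild type and 401, 506 and 515 in Hoxb13hd and 488, 782 and 635 against 249, 261 and 216 CPM on the deletion. The strain of each line is not given. An effect of the allele and a difference in genetic background therefore cannot be told apart for any called gene. This includes the genes above, Hba-a2, the pseudogenes and the genes called in both settings. Hoxb1 was not called on the deletion (log2 0.69, adjusted p = 0.052). None of the 8 called tail bud genes and none of the 5 called early neuron genes passed the test of the difference (lowest adjusted p 0.083 and 0.061), which does not show that the effects were alike. Frzb of the Wnt list did pass it, with log2 -0.51 for the allele alone and 0.58 on the deletion (adjusted p of the difference 0.011). Grik1 of the ion channel list passed too, with -1.31 and 0.43 (adjusted p of the difference 0.044).

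**Figure D5:**
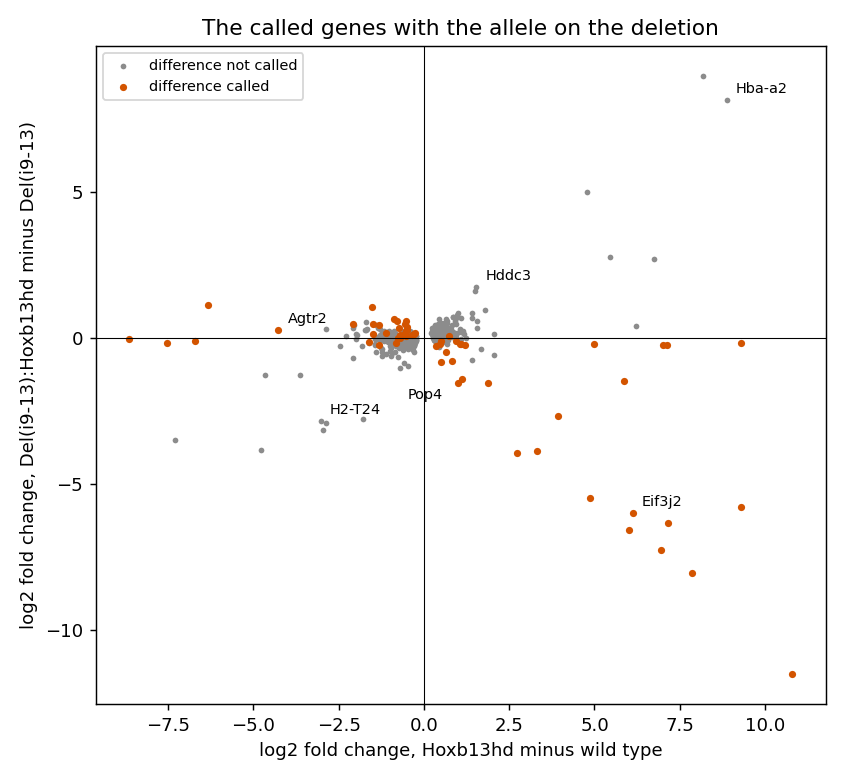
Log2 fold change of Hoxb13hd over wild type (horizontal axis) against that of Del(i9-13):Hoxb13hd over Del(i9-13) (vertical axis) for the 517 called genes; orange points are the 60 genes whose 2 values differed by the test of the difference, grey points the rest. Most points lie near the origin, Hba-a2, Hddc3 and H2-T24 have the same sign on both axes, and Eif3j2 and Pop4 have opposite signs.

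Pseudogenes were among the called genes. Of 481 tested, 29 (6.03%) were called, 20 higher and 9 lower, against 3.29% of 14346 protein-coding genes, and 20 of them had an absolute log2 fold change over 3, as did 9 called protein-coding genes. Of these 29, 11 (37.9%) kept their sign on the deletion, 4 were called in the same direction there and 7 in the opposite one, and 18 passed the test of the difference. Among 472 called protein-coding genes the same sign was seen for 341 (72.2%). Of 963 divergent pairs of tested genes, which start within 1000 bases of each other on opposite strands, 51 had 1 member called and 1 pair had both, beside 3.01% of all genes called. Both members had the same sign in 57.9% of all pairs. That pair was Slc26a11, an anion transporter, and Sgsh, a lysosomal sulfatase, whose starts lie 21 bases apart. Slc26a11 had 2.31, 1.95 and 3.12 CPM in wild type and 5.45, 6.01 and 5.18 in Hoxb13hd (log2 1.17, adjusted p = 0.017). Sgsh had 9.97, 7.75 and 11.4 CPM in wild type and 14.5, 13.5 and 14.5 in Hoxb13hd (log2 0.54, adjusted p = 0.037).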

How the data were processed

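RNA of headless E10.5 trunks was used in 12 libraries, in 4 groups of 3 taken from the sample titles. A further 3 E9.5 Del(i9-13) libraries were used for the change with stage. The members of the comparison and the gene lists were chosen with earlier results of these data known, 6 lists after the values were seen. The submitters' processing notes name cutadapt 1.18, STAR 2.7.10a, Cufflinks 2.2.1 and the build mm10. The deposited count table holds whole-number read counts for 55141 genes, and the deposited FPKM table holds FPKM computed by the authors for 55138 genes. The counting program's strand setting and annotation are not stated there. Pseudogenes, close copies and overlapping genes are therefore uncertain. All count columns were assigned to a sample. Coordinates are those of the FPKM table (mm10), and gene types, GC content and lengths come from GENCODE M21.

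The model was edgeR 4.0.16 in R 4.3.3, with filterByExpr (minimum count 10, minimum total 15), TMM scaling, 1 robust quasi-likelihood fit over the 12 libraries, and Benjamini-Hochberg adjustment over all genes tested with a threshold of 0.05. SE is the absolute log2 fold change over the square root of F. Depth was 19.3 M to 23.7 M counts in the 6 libraries compared, and 3 counts is the floor of a library.

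Named genes were the Hox genes given, the 15 largest changes among called genes in each direction with at least 1 CPM in either group and no overlap, the 10 with the smallest adjusted p, called genes within 500 kb of Hoxb13, and up to 4 called members of each list, leaving out Xist, Tsix, Y-linked genes, pseudogenes and unnamed symbols. Other genes were named after their values were seen, and a few genes are not reported here. Alternatives were RLE scaling, other filters, the 6 libraries alone, DESeq2 1.42.0, limma 3.58.1 on log2(FPKM + 0.1) or log2(FPKM + 1), a replicate block, Xist as covariate, no robust estimate and leaving out each library.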

Additional observations from a re-analysis of the deposited data

Results flagged for a closer look

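For 13 of the genes named here by rule, the effect of the allele alone and its effect on Del(i9-13) differed by the test of the difference in edgeR's quasi-likelihood model (adjusted p over all genes). Pop4 (1.3e-06), Eif3j2 (1.1e-07), H4f16 (6.8e-05) and Gchfr (0.0059) rose with the allele alone and had a negative value on the deletion, with log2 fold changes of 1.01 and -1.54, 6.13 and -5.99, 1.11 and -1.39, and 1.89 and -1.52. Slc9a3r1 (0.043) rose with the allele alone, by 0.73, and had 0.08 on the deletion. Banp (0.0025), St6gal2 (0.031), Slitrk6 (0.036) and Lepr (0.025) fell with the allele alone and had values of -0.01, -0.17, -0.02 and -0.12 on the deletion. Agtr2 (0.039), Nwd2 (0.023), Plppr1 (0.036) and Palmd (0.023) fell with the allele alone and had positive values of 0.26, 0.49, 1.06 and 0.47 on the deletion. Groups of 3 libraries are too small for a test of single outlying samples.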

How the results depend on the processing

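The 517 calls became 333 with the 6 libraries alone, 1240 with DESeq2, 272 and 277 with limma on log2(FPKM + 0.1) and log2(FPKM + 1), 132 with limma and no filter, 283 with Xist as covariate and 114 with an absolute log2 fold change of at least 1. Leaving out each library gave 51 to 676 calls. The 90 genes called by the test of the difference became 297 with DESeq2, 47 with limma and no filter, and 45 to 93 with each library left out. The share of called genes with the same sign on the deletion was 64.3%, 65.0% and 58.3% with the 3 limma fits and 51.0% to 68.8% with each library left out. Calls within 500 kb of Hoxb13 ran from 0 to 5. With the replicate block 451 genes were called, 387 of them among the 517. Correlations of same-numbered libraries' deviations were -0.35, -0.10 and -0.04. With groups of 3 libraries these values cannot show whether replicate numbers stand for a shared litter or batch. RLE scaling, the other count filters and the fit with no robust estimate kept the count of calls within 1.5 times. The near-zero values of 3 genes changed sign: Hoxb4 to -0.00076 with RLE and with DESeq2, -0.0034 with no filter, -0.000196 with the 6 libraries alone, -0.11 and -0.095 with limma and -0.059 with the GC and length offset (added after the data were seen), and Hoxb6 to 0.065 and 0.057 with limma. With each library left out Hoxb4 ran from -0.12 to 0.12, Hoxb6 from -0.11 to 0.098 and Hoxb2 from -0.031 to 0.20. Of 2904 values of named genes under alternatives, 2056 kept direction and side of the threshold and 804 fell below it. Depth limits genes such as Hoxb13, at 0 to 25 reads.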
